A study of Mus musculus with 36 samples.

Results

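Solute carriers are the large group of membrane proteins that move sugars, amino acids, nucleosides, ions, metals, vitamins and metabolites across cell and organelle membranes. Every gene whose symbol begins with Slc, a number, the letter a and a number was taken as a member, which gave 149 of the 9844 genes in the table of eosinophils by tissue and 118 of the 8001 genes in the table of eosinophils sorted by the Nmur1 reporter. In all 150 genes were in at least 1 table and 117 were in both. The rule also caught 3 genes that are not carriers, namely Slc9a3r1, a scaffold protein of the cell cortex, Slc7a6os and Slc4a1ap. By comparison, 342 protein-coding genes of the GENCODE mouse annotation (build GRCm38) have a symbol of this form, and those without a row were not analysed here.

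Eosinophils are granulocytes that mature in the bone marrow, circulate briefly and settle in mucosal tissues. They were sorted as total eosinophils from the small intestine (4 libraries), colon (3), skin (3), lung (3), spleen (4), blood (4) and bone marrow (3) of untreated wildtype C57BL/6 mice at steady state, aged 8 to 12 weeks. A separate set held small intestine eosinophils of NMUR1-TdT reporter mice, in which the fluorescent protein TdT marks cells that express Nmur1, which encodes a receptor for neuromedin U, with 5 Nmur1-TdT positive and 6 Nmur1-TdT negative libraries. Both sexes were pooled, and each library was made with the full-length Smart-seq2 method. The values are TPM (reads per length of transcript, scaled to a fixed total in each library), so sequencing depth is unknown, and in bulk samples fewer cells of a type and less RNA per cell cannot be told apart.

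A carrier sets which substrates a cell can take up, release or pass between its compartments, and many act in pairs with a partner chain. Slc3a2 (CD98 heavy chain, 4F2hc) is the shared partner that brings several amino acid carriers of the Slc7 family to the surface, among them Slc7a11, which imports cystine in exchange for glutamate and so feeds glutathione synthesis. The Slc25 family sits in the inner mitochondrial membrane, and Slc40a1 (ferroportin) is the known exporter of iron from mammalian cells.

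Changes are given as differences of log2(TPM + 1) relative to the median gene of the same comparison, ± standard error, with Benjamini-Hochberg adjusted p-values from limma over all genes tested. A gene was called at an adjusted p under 0.05. The adjusted p-values and calls test the difference as fitted, before that of the median gene is subtracted, so the tested difference is the printed one plus that of the median gene. The median gene moved by -0.57 log2 units in lung, 0.22 in the positive sort, -0.15 in barrier tissues, 0.16 in skin, 0.11 in small intestine, 0.09 in colon, 0.08 in bone marrow and 0.02 in small intestine against colon. After median-ratio scaling it moved by -0.20 in lung and 0.05 in the sort. A test of the difference from the median gene was added after seeing the data, and its results are given where calls were lost. Whether replicates came from different animals is not stated, so the p-values reflect variation among these libraries, part of which may be technical.

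The eosinophil genes Siglecf (105 to 347 TPM) and Ccr3 (274 to 1590.1 TPM) were present in every tissue library. The whole eosinophil list (12 of 12 measured) summed to 118106 to 164235 TPM in bone marrow and 10535 to 53255 TPM in spleen. It summed to 4614 to 5297 TPM in blood, 3315 to 3915 TPM in lung and 3214 to 4783 TPM in skin. The sums were 5840 to 6652 TPM in colon, where 1 listed gene was at 0 in every library, and 3241 to 3770 TPM in small intestine. Bone marrow libraries also held genes of neutrophil precursors, with Camp at 4042 to 4667 TPM and Elane at 5705 to 8373 TPM. Spleen replicate 4 had Camp at 866 TPM, while the remaining libraries had at most 3.64 TPM. The whole list of neutrophil and precursor genes (13 of 14 measured) summed to 69357 to 79203 TPM in bone marrow, 65958 to 75168 TPM in lung, 58780 to 65685 TPM in blood and 52337 to 67654 TPM in spleen. Camp gave at most 3.64 TPM of the lung and blood sums, which came from other genes of the list. The sum was lower in skin (4541 to 12721 TPM), colon (11727 to 14023 TPM) and small intestine (6025 to 7889 TPM). It lay above the eosinophil sum in every library of blood, lung, colon and small intestine. The part of neutrophils and their precursors in the results was not tested. Comparisons of other tissues were therefore also computed without the bone marrow libraries and spleen replicate 4, a choice made after seeing the data. Bone marrow against the other tissues could not be, so its calls have no such check. Haemoglobin and other erythroid transcripts (8 of 14 listed genes measured) summed to 39115 to 118818 TPM in blood. Nmur1 was at 25.9 to 53.1 TPM in positive and 0 to 15.6 TPM in negative libraries, in the direction of the labels.

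Solute carrier transcripts made up the largest share of the deposited TPM in the gut. The members summed to 0.880% of all deposited TPM in small intestine eosinophils (range 0.830% to 0.956%) and 0.679% in colon (0.654% to 0.707%). The sums were 0.534% in skin (0.532% to 0.537%) and 0.424% in lung (0.419% to 0.433%). Spleen, which overlapped lung, blood and bone marrow were lowest by mean, at 0.405% (0.315% to 0.449%), 0.382% (0.365% to 0.390%) and 0.344% (0.320% to 0.357%). In the reporter sort the members summed to 0.955% in positive libraries (0.880% to 1.06%) and 0.705% in negative ones (0.597% to 0.794%), with no overlap. Few genes carried these sums: Slc3a2 alone gave 22.4% of the sum in small intestine against 2.23% in bone marrow. Without Slc3a2 and Slc7a11 the sum was still 5304 ± 250.1 TPM in small intestine and 5011 ± 222 TPM in colon, against 2894 ± 157 TPM in bone marrow (SD, n = 4, 3 and 3).

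**Figure D1:**
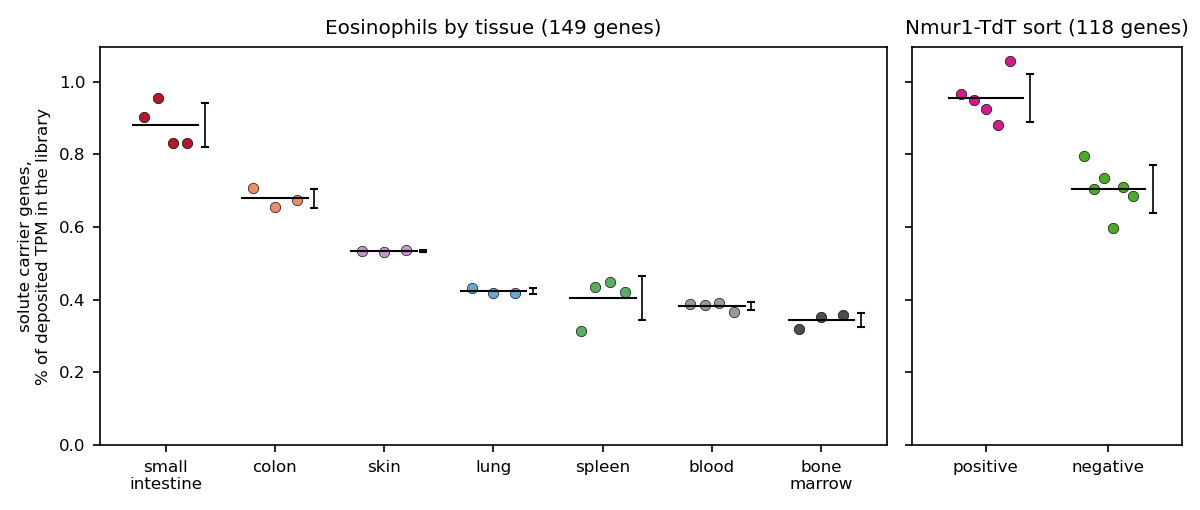
Summed TPM of the solute carrier genes as a percentage of all deposited TPM in each library; points are libraries, lines are group means and bars are 1 SD. Small intestine libraries (0.830% to 0.956%) lay above every other tissue, and positive libraries (0.880% to 1.06%) above negative ones (0.597% to 0.794%).

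Most members varied between tissues, as did most genes. Of the 149 members, 113 (75.8%) were called in the F-test across the 7 tissues, against 81.1% of all genes tested. By mean level, 39 members were highest in small intestine, 28 in skin, 20 in bone marrow, 19 in spleen, 18 in blood, 18 in colon and 7 in lung. The 5 members with the smallest range of tissue means, among those of at least 10 TPM, were Slc38a10, Slc4a2 (a chloride-bicarbonate exchanger), Slc25a46, Slc39a7 (a zinc carrier of the endoplasmic reticulum) and Slc9a3r1. Slc39a7 averaged 66.2, 67.3, 66.4, 37.7, 54.8, 56.3 and 43.3 TPM in small intestine, colon, skin, lung, spleen, blood and bone marrow. At the other end, Slc11a1, Slc2a6, Slc6a4, Slc20a1 and Slc7a11 had the largest ranges and are described with their classes below.

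**Figure D2:**
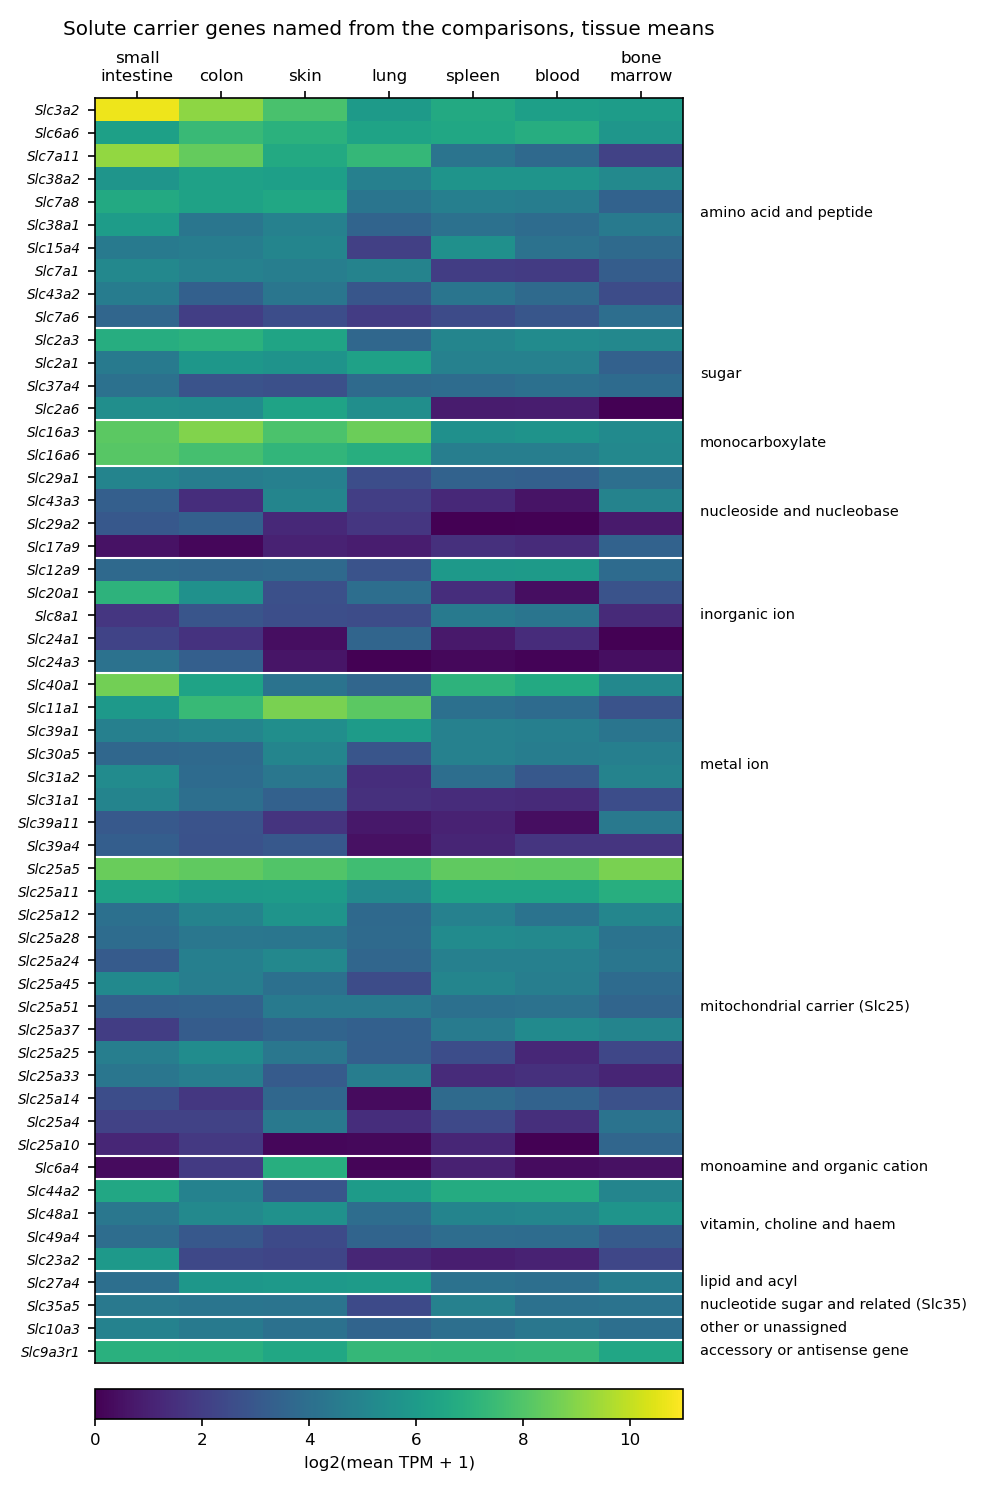
Mean TPM of solute carrier genes named from the comparisons, as log2(mean TPM + 1), by tissue (columns) and substrate class (rows grouped at the right). Slc3a2 and Slc7a11 are brightest in small intestine and colon, Slc11a1 in skin and lung, and Slc6a4 in skin.

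Amino acid carriers included both chains of the cystine importer. The promoter windows of Slc7a11 and Slc3a2 are shown because both transcripts were highest in small intestine and colon, and that of Slc20a1 because this phosphate importer was highest at the same sites and has a match to the second motif searched. Sequences are 300 bases, 250 before and 50 after the start, from RefSeq (GRCm38.p6), 5′ to 3′ on the strand of the gene. They are Slc7a11 at chr3:50443564-50443863 (minus strand), Slc3a2 at chr19:8713848-8714147 (minus strand) and the second of 2 Slc20a1 windows at chr2:129206846-129207145 (plus strand). Capitals mark matches to TGATGNAAN, the amino acid response element core, or to TGACNNNGC, the antioxidant response element, on either strand.
Slc7a11: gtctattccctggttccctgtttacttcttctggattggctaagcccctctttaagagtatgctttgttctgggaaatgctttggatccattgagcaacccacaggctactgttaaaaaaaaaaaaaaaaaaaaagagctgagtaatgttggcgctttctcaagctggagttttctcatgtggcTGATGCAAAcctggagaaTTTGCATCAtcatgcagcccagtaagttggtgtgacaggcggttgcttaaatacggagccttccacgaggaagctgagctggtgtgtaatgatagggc
Slc3a2: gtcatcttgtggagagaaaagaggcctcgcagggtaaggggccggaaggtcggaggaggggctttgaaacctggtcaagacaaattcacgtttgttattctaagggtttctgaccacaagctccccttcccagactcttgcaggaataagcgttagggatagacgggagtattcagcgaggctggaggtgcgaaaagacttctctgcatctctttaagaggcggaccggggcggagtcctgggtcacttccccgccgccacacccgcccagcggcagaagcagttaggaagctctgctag
Slc20a1: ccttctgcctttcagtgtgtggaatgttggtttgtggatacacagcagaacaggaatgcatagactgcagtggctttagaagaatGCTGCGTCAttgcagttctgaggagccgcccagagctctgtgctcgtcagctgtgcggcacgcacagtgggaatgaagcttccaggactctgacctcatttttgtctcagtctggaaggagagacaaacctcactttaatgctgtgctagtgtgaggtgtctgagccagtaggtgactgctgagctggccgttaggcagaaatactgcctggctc

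The Slc7a11 window held TGATGNAAN at 66 to 58 bases before the start and, on the other strand, at 48 to 40 bases before it. Of 23 windows of amino acid carriers it was the 1 with this motif (4.35%), against 3.95% of all 32851 promoter windows. The Slc20a1 window held TGACNNNGC on the other strand at 165 to 157 bases before the start. That motif was in 29 of 148 windows of members (19.6%), against 12.4% of all windows. All windows cover 27025 genes, many of them absent from the expression data. The share among the other genes measured here is not given, so the excess cannot be assigned to solute carriers. The Slc3a2 window held neither set of letters, but it lies within the gene and does not span its annotated start in GENCODE. The other Slc20a1 window, at chr2:129198523-129198822 (plus strand), spans the annotated start of that gene and also held neither. The printed Slc20a1 window was chosen for its match. Of the 150 members, 115 had a window in the table.

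Slc3a2 (chr19:8706882-8723369, GRCm38) was at 1938, 1956, 1428 and 1484 TPM in the small intestine libraries, 589.8, 579.7 and 503 TPM in colon and 240.4, 304 and 145 TPM in skin. It was at 55.9, 66.6 and 65.7 TPM in lung, 93.2, 79.4, 146 and 82.2 TPM in spleen, 67.8, 73.4, 74.9 and 74.2 TPM in blood and 60.4, 67.3 and 70.2 TPM in bone marrow. No small intestine library overlapped with another tissue, and colon was next. Against the 6 other tissues Slc3a2 rose by 3.64 ± 0.15 log2 units (adjusted p = 1.68e-16) in small intestine and by 1.81 ± 0.16 log2 units (adjusted p = 2.03e-09) in colon, and small intestine exceeded colon by 1.57 ± 0.20 log2 units (adjusted p = 2.47e-06).

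Slc7a11 (chr3:49892526-50443614) was at 558, 806, 501 and 539 TPM in small intestine, 346, 339 and 328 TPM in colon, 68.5, 92.2 and 141 TPM in skin and 164, 162 and 148 TPM in lung. It was at 9.97, 17.4, 23.4 and 20.7 TPM in spleen, 11.8, 7.95, 12.2 and 18.04 TPM in blood and 3.64, 5.07 and 1.74 TPM in bone marrow. Every library of the 4 barrier tissues (small intestine, colon, skin, lung) was above every library of spleen, blood and bone marrow. The barrier tissues exceeded the other 3 by 4.71 ± 0.16 log2 units (adjusted p = 2.14e-18), and small intestine exceeded its 6 other tissues by 3.72 ± 0.21 log2 units (adjusted p = 7.35e-14). The small intestine mean was above the colon mean, without a call between them (a difference of 0.78 ± 0.29 log2 units, adjusted p = 0.0714). In lung Slc7a11 was 2.18 ± 0.24 log2 units (adjusted p = 5.13e-06) above the 6 other tissues, and 1.45 (adjusted p = 0.00213) without the bone marrow libraries and spleen replicate 4.

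Other amino acid carriers were also higher in small intestine. Of the 22 members of the class, 10 rose and 0 fell against the 6 other tissues, against 24.7% and 16.1% of all genes. Slc38a1, a sodium-coupled importer of glutamine and other neutral amino acids, was at 63.99, 66.00, 59.03 and 76.2 TPM in small intestine and at 10.1 to 29.8 TPM (median 17.9) over the other 20 libraries. Its rise was 1.78 ± 0.17 log2 units (adjusted p = 1.49e-09), with no overlap. Slc7a8, another light chain that pairs with Slc3a2, averaged 101 TPM in small intestine, 80.5 in colon and 92.1 in skin, against 18.7 in lung, 25.8 in spleen, 24.6 in blood and 9.90 in bone marrow. It was 1.81 ± 0.14 log2 units (adjusted p = 2.26e-10) higher in barrier tissues. The cationic amino acid importer Slc7a1 was 18.2 to 39.9 TPM (median 32.3) over the 13 barrier libraries and 0.95 to 8.88 TPM (median 3.77) over the other 11, a rise of 2.71 ± 0.21 log2 units (adjusted p = 9.22e-11).

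Some members of the class had other patterns. Slc6a6, the taurine importer, was highest in colon (186, 196 and 137 TPM) and lower in small intestine (67.99, 101, 72.1 and 61.6 TPM), a difference of -1.21 ± 0.24 log2 units (adjusted p = 0.00103) for small intestine against colon. Slc43a2, a carrier of large neutral amino acids, ran the other way between these sites, at 30.97, 21.2, 24.5 and 17.2 TPM in small intestine and 7.96, 10.7 and 9.21 TPM in colon, a difference of 1.21 ± 0.31 log2 units (adjusted p = 0.00741). Slc38a2, another importer of neutral amino acids, rose in colon by 0.70 ± 0.18 log2 units (adjusted p = 0.00201). Slc15a4, a lysosomal carrier of histidine and small peptides, was at 18.03, 23.8, 21.4 and 117 TPM in the 4 spleen libraries. The high library is the spleen replicate with neutrophil precursor transcripts. Bone marrow, where Camp was higher than in that library, had Slc15a4 at 10.99 to 14.1 TPM. The part of precursor cells in the high value was not tested. In lung Slc15a4 was at 6.46, 3.03 and 0.15 TPM and fell by 2.22 ± 0.42 log2 units (adjusted p = 6.93e-06).

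**Figure D3:**
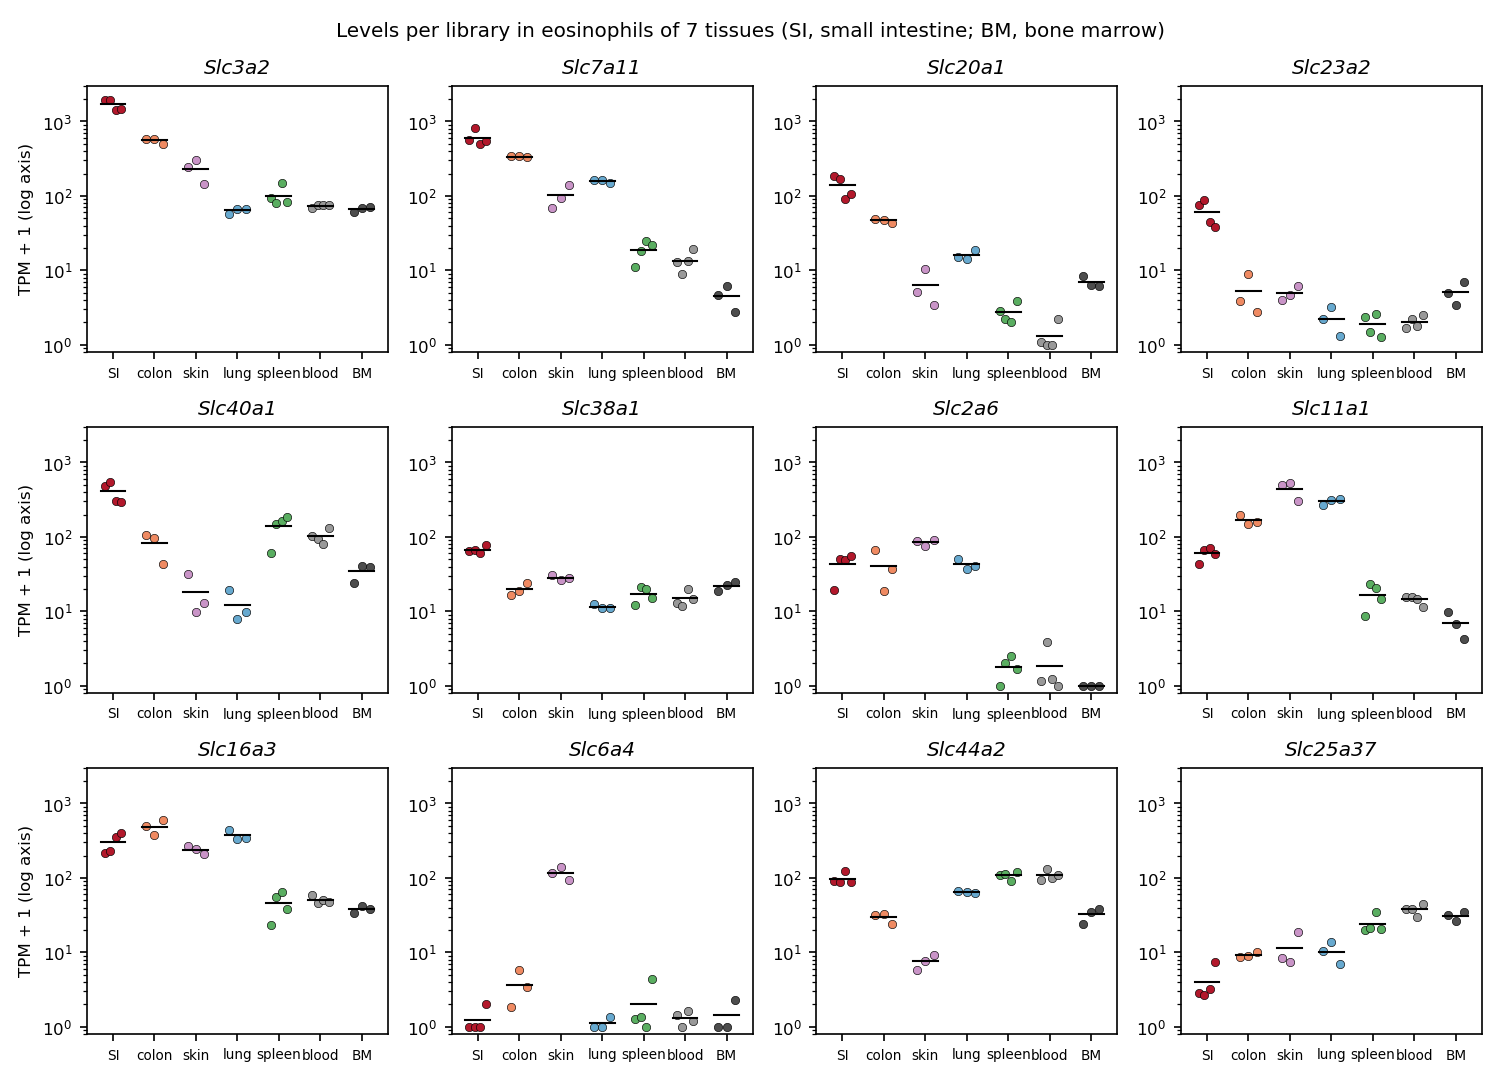
TPM + 1 on a log axis for 12 solute carrier genes; points are libraries and lines are arithmetic means of each tissue. Slc3a2, Slc20a1, Slc23a2, Slc40a1 and Slc38a1 are highest in every small intestine library, Slc2a6 and Slc11a1 separate barrier tissues from spleen, blood and bone marrow, Slc6a4 is high in skin, and Slc44a2 is lowest there.

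Sugar carriers divided by tissue. Slc2a6 (GLUT6, chr2:27021363-27027998) was at 18.5, 49.1, 47.4 and 54.3 TPM in small intestine, 65.2, 17.6 and 36.6 TPM in colon, 86.2, 74.3 and 88.9 TPM in skin and 49.9, 35.9 and 39.6 TPM in lung. It was at 0, 1.03, 1.48 and 0.7 TPM in spleen, 0.16, 2.92, 0.23 and 0 TPM in blood and 0, 0 and 0 TPM in bone marrow. The 2 sets of tissues did not overlap, and the barrier tissues were 5.26 ± 0.25 log2 units (adjusted p = 3.90e-15) higher, the largest rise of any member in that comparison. Skin, with the highest levels, exceeded its 6 other tissues by 3.35 ± 0.38 log2 units (adjusted p = 6.31e-08).

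The glucose importer Slc2a3 averaged 114 TPM in small intestine, 128 in colon and 84.2 in skin, against 11.8 in lung, 30.7 in spleen, 38.7 in blood and 34.3 in bone marrow. Lung, the lowest, was at 17.8, 9.53 and 7.95 TPM, a change of -1.75 ± 0.24 log2 units (adjusted p = 3.53e-08). The other main glucose importer, Slc2a1 (GLUT1), ran the opposite way in lung, at 72.5, 83.8 and 75.6 TPM, above all other libraries, which were at 4.09 to 63.4 TPM (median 27.5). Its rise there was 2.07 ± 0.27 log2 units (adjusted p = 6.59e-05). Between the gut sites Slc2a1 was lower in small intestine, with a change of -1.34 ± 0.33 log2 units (adjusted p = 0.00702) against colon. Slc50a1, a sugar carrier of the SWEET family, ranged in mean from 43.4 TPM in skin to 77.3 TPM in blood, with no call. Over the 11 sugar carriers, 5 rose and 1 fell in small intestine (24.7% and 16.1% of all genes), and 4 rose and 1 fell in barrier tissues (22.4% and 31.1% of all genes).

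The monocarboxylate carriers Slc16a3 and Slc16a6 were higher in barrier tissues. Slc16a3 (MCT4) exports lactate, and Slc16a6 is known in zebrafish liver as an exporter of ketone bodies. Slc16a3 was 206 to 590.1 TPM (median 338) over the barrier libraries and 22.5 to 63.3 TPM (median 45.7) over spleen, blood and bone marrow, a rise of 3.10 ± 0.14 log2 units (adjusted p = 1.75e-15) without overlap. Colon was highest, at 496, 375 and 590.1 TPM, and lung next, at 438, 337 and 338 TPM. Slc16a6 was at 253, 281, 249 and 348 TPM in small intestine, 232, 201 and 209 TPM in colon, 211, 153 and 85.8 TPM in skin and 140.4, 115 and 95.97 TPM in lung, against 11.5 to 44.2 TPM (median 28.3) over the other 11 libraries. It rose by 2.85 ± 0.17 log2 units (adjusted p = 7.76e-13) in barrier tissues and by 2.01 ± 0.23 log2 units (adjusted p = 2.58e-08) in small intestine. Slc16a7, a related importer, averaged 9.57 TPM in small intestine and 9.78 in colon, with no call in any comparison of single tissues.

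Of the 7 nucleoside and nucleobase carriers, 3 rose and 0 fell in small intestine, against 24.7% and 16.1% of all genes. Slc28a2, the sodium-coupled importer of purine nucleosides, was at 62.1, 66.1, 64.4 and 77.7 TPM in small intestine and at 8.09 to 51.8 TPM (median 28.4) elsewhere, a rise of 1.10 ± 0.22 log2 units (adjusted p = 8.19e-05). Slc28a2b is a near-identical copy, so the split of reads between them is uncertain. Slc29a2, an equilibrative nucleoside carrier, was at 6.93, 10.3, 5.64 and 5.60 TPM in small intestine and 8.26, 8.49 and 10.9 TPM in colon, against 0 to 0.95 TPM (median 0) over the libraries of spleen, blood and bone marrow. It rose in barrier tissues by 2.20 ± 0.16 log2 units (adjusted p = 6.32e-11). Its relative Slc29a1 averaged 29.8 TPM in small intestine and 5.07 TPM in lung, where it fell by 1.21 ± 0.34 log2 units (adjusted p = 0.000144), or by 0.62 without lung replicate 2. Slc43a3, a purine nucleobase carrier, was high at 2 distant sites: 35.3, 47.3 and 10.8 TPM in skin and 29.9, 31.4 and 27.02 TPM in bone marrow, against at most 11.4 TPM elsewhere, so that 1 skin library lay within the range of the other tissues. It was 2.76 ± 0.48 log2 units (adjusted p = 3.08e-05) higher in bone marrow and 2.50 ± 0.48 log2 units (adjusted p = 0.000108) higher in skin.

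Among inorganic ion carriers, the phosphate importer Slc20a1 (chr2:129198764-129211616) stood apart. It was at 186, 168, 90.8 and 104 TPM in small intestine, 48.6, 47.1 and 42.1 TPM in colon, 4.16, 9.54 and 2.38 TPM in skin and 14.1, 13.1 and 17.5 TPM in lung. It was at 1.88, 1.20, 1.04 and 2.87 TPM in spleen, 0.09, 0, 0 and 1.21 TPM in blood and 7.32, 5.28 and 5.24 TPM in bone marrow. Both gut sites were above all other libraries, and small intestine was above colon. The rise in small intestine was 4.18 ± 0.28 log2 units (adjusted p = 1.83e-12), the largest of all members there. Against colon alone it was 1.47 ± 0.38 log2 units (adjusted p = 0.00859), and that call was lost with a pseudocount of 0.1 (adjusted p = 0.158).

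Slc24a3, a potassium-dependent sodium-calcium exchanger, was at 15.7, 19.4, 16.1 and 15.3 TPM in small intestine and 6.02, 12.3 and 9.10 TPM in colon, and at most 1.48 TPM in the other tissues. Its rise in small intestine was 3.28 ± 0.25 log2 units (adjusted p = 2.93e-11), or 5.36 with a pseudocount of 0.1. The related Slc24a1 was highest in lung, with a mean of 10.9 TPM, a rise of 3.07 ± 0.27 log2 units (adjusted p = 5.86e-08). Slc12a9 ran the other way: 3.66 to 22.6 TPM (median 10.8) in barrier tissues against 39.8, 48.1, 84.3 and 69.5 TPM in spleen and 56.3, 58.5, 72.99 and 65.6 TPM in blood. Bone marrow, at 11.6, 14.6 and 13.9 TPM, was at the level of the barrier tissues. Slc12a9 fell in barrier tissues by 1.65 ± 0.18 log2 units (adjusted p = 5.38e-09).

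Slc4a1, the anion exchanger of red cells (named after its values were seen), was 0 in every small intestine, colon and skin library, and at 11.2, 4.57, 2.93 and 14.9 TPM in blood. Blood also held the most erythroid transcripts, as given above, and their part in this level was not tested.

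Metal carriers included genes with opposite orders of tissues. Slc11a1 (NRAMP1, chr1:74375195-74386062), which moves divalent metals out of the phagosome, was at 42.3, 66.6, 70.5 and 57.9 TPM in small intestine, 193, 149.6 and 158 TPM in colon, 496, 525 and 303 TPM in skin and 270.3, 310.0 and 325 TPM in lung. It was at 7.64, 22.4, 19.4 and 13.5 TPM in spleen, 14.8, 14.6, 13.8 and 10.6 TPM in blood and 8.88, 5.65 and 3.30 TPM in bone marrow. All barrier libraries were above all others, by 4.21 ± 0.16 log2 units (adjusted p = 2.91e-17). Among barrier tissues small intestine was lowest, with a change of -1.52 ± 0.29 log2 units (adjusted p = 0.000677) against colon.

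The iron exporter Slc40a1 (chr1:45908068-45926523) was highest in small intestine. It was at 481, 546, 306 and 295 TPM in small intestine, 105, 96.6 and 42.7 TPM in colon, 30.4, 8.88 and 12.1 TPM in skin and 18.1, 6.94 and 8.74 TPM in lung. It was at 59.8, 148, 163 and 185 TPM in spleen, 100.4, 91.5, 78.6 and 133 TPM in blood and 22.9, 40.03 and 38.2 TPM in bone marrow. Small intestine exceeded its 6 other tissues by 3.09 ± 0.29 log2 units (adjusted p = 1.17e-09) and colon by 2.34 ± 0.40 log2 units (adjusted p = 0.000135), and skin fell by 2.35 ± 0.33 log2 units (adjusted p = 8.59e-06). Spleen and blood overlapped and lay between small intestine and skin.

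Further metal carriers moved in the gut. The copper importer Slc31a1 was at 45.3, 32.6, 12.2 and 29.03 TPM in small intestine and 0 to 22.5 TPM (median 3.85) elsewhere, with some overlap, and rose by 2.48 ± 0.42 log2 units (adjusted p = 1.66e-05). The zinc importer Slc39a4 rose by 1.48 ± 0.49 log2 units (adjusted p = 0.0106) at a low level, 13.1, 4.30, 5.77 and 12.1 TPM. In lung the zinc importer Slc39a1 was at 45.3, 81.8 and 66.04 TPM, above all other libraries, a rise of 1.74 ± 0.21 log2 units (adjusted p = 8.39e-05), while Slc31a2 was at 0.71, 0.19 and 4.17 TPM, below all others, a change of -2.48 ± 0.34 log2 units (adjusted p = 1.14e-07). Slc39a11 was highest in bone marrow, at 18.6, 18.1 and 25.6 TPM, with a rise of 2.81 ± 0.34 log2 units (adjusted p = 1.04e-07). Of the 23 metal carriers 8 rose and 1 fell in small intestine, against 24.7% and 16.1% of all genes.

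Mitochondrial carriers were the largest class, with 32 members. In small intestine 8 rose and 6 fell (25% and 18.8%), near the shares of all genes (24.7% and 16.1%), and in barrier tissues 6 rose and 10 fell (18.8% and 31.2%, against 22.4% and 31.1% of all genes). Slc25a3, which brings phosphate into mitochondria, was at 992, 1113, 919 and 976 TPM in small intestine and 1335, 1195 and 1039 TPM in colon, against 367 to 529 TPM (median 426) over spleen, blood and bone marrow. Every barrier library was above every one of these, and the rise was 1.15 ± 0.06 log2 units (adjusted p = 8.77e-13). Slc25a5, an exchanger of ADP for ATP with processed copies in the genome that can share reads, averaged 358 TPM in small intestine and 439 TPM in bone marrow, where it rose by 0.54 ± 0.12 log2 units (adjusted p = 0.000255). Slc25a11, the oxoglutarate carrier, rose there by 0.77 ± 0.18 log2 units (adjusted p = 0.000514), or 1.19 with quantile normalization.

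The pyrimidine nucleotide carrier Slc25a33 was 5.85 to 33.2 TPM (median 20.3) in barrier tissues and 0 to 3.65 TPM (median 1.14) elsewhere, without overlap, a rise of 3.15 ± 0.25 log2 units (adjusted p = 1.89e-10). Slc25a25, which exchanges ATP-magnesium for phosphate, was at 30.6, 46.1 and 42.9 TPM in colon and 29.00, 24.7, 26.9 and 20.99 TPM in small intestine, and rose in barrier tissues by 2.63 ± 0.25 log2 units (adjusted p = 5.90e-09). Slc25a24, a carrier of the same kind, ran the other way in small intestine, at 10.00, 8.76, 7.78 and 5.11 TPM, against a mean of 25.7 ± 2.79 TPM in colon (SD, n = 3), a difference of -1.63 ± 0.24 log2 units (adjusted p = 2.26e-05). The carnitine-acylcarnitine carrier Slc25a20 was highest in every small intestine library, with a mean of 76.2 TPM and a rise of 1.36 ± 0.21 log2 units (adjusted p = 2.76e-06).

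Slc25a37 (mitoferrin-1), which brings iron into mitochondria, was at 1.81, 1.65, 2.19 and 6.38 TPM in small intestine, 7.77, 7.87 and 9.19 TPM in colon, 7.37, 6.30 and 18.03 TPM in skin and 9.28, 12.6 and 5.86 TPM in lung. It was 18.9 to 43.9 TPM (median 31.02) over the 11 libraries of spleen, blood and bone marrow, all of them above the barrier libraries. The change was -1.81 ± 0.20 log2 units (adjusted p = 5.84e-09) in barrier tissues and -2.35 ± 0.26 log2 units (adjusted p = 1.22e-07) in small intestine. This gene is highly expressed in red cell precursors, and erythroid transcripts were most abundant in blood (39115 to 118818 TPM). They summed to 7790 to 18484.5 TPM in bone marrow, 44.0 to 39546 TPM in spleen and 2273 to 29135 TPM in lung. In small intestine they summed to 39.5 to 17761 TPM, in skin to 4.83 to 1403 TPM and in colon to 110 to 370 TPM. Their part in the Slc25a37 level was not tested. Slc25a28 (mitoferrin-2) fell in barrier tissues by 0.67 ± 0.17 log2 units (adjusted p = 0.000191), or by 1.09 without the bone marrow libraries and spleen replicate 4.

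In skin, the aspartate-glutamate carrier Slc25a12 averaged 50.1 TPM and rose by 1.09 ± 0.26 log2 units (adjusted p = 0.000629). Slc25a10, the dicarboxylate carrier, was at 13.4, 11.6 and 8.78 TPM in bone marrow and at most 4.32 TPM elsewhere, a rise of 2.81 ± 0.33 log2 units (adjusted p = 6.13e-08), or 4.50 with a pseudocount of 0.1. The vesicular nucleotide carrier Slc17a9 rose in bone marrow by 2.53 ± 0.39 log2 units (adjusted p = 4.66e-06), to a mean of 10.1 TPM, or by 3.94 with a pseudocount of 0.1. The bone marrow libraries are those that held neutrophil precursor transcripts. The macrophage and monocyte list (6 of 13 measured) summed to 4424 to 4943 TPM there and at most 884 TPM elsewhere. Of the T, natural killer and innate lymphoid list only Nkg7 was measured (1 of 14). Nkg7 was at 594 to 755 TPM in bone marrow and at most 42.7 TPM elsewhere. The part of all these cells in the rises in bone marrow was not tested.

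Of the 5 monoamine and organic cation carriers, the serotonin importer Slc6a4 (chr11:76998603-77032340) was high in skin alone. It was at 114, 141 and 93.97 TPM in skin and 0 to 4.76 TPM (median 0.27) over the other 21 libraries, a rise of 6.10 ± 0.37 log2 units (adjusted p = 4.80e-12). Mast cells and basophils also express Slc6a4 in the mouse, and 7 of 9 listed genes of these cells were measured. Their sum was 306 to 593 TPM in skin, 338 to 364 TPM in lung and 15.9 to 261 TPM in the other tissues, most of it Hdc, the histidine decarboxylase. In lung, Hdc was at 321 to 348 TPM while Slc6a4 was at 0, 0 and 0.34 TPM. Of the 7 genes, 4 were at 0 in every lung library and 1 in every skin library. Cpa3, Ms4a2 and Fcer1a, which mark mast cells and basophils, were each at 0 in 2 of the skin libraries. They were at 21.02, 1.10 and 10.6 TPM in skin replicate 4, the skin library with the lowest Slc6a4. Kit, Mcpt8 and Gata2, also on the list, are given here in the sums only. The part of mast cells and basophils in the Slc6a4 level was not tested. Slc18a2, which loads monoamines into vesicles, was low in all tissues, from 4.88 TPM in spleen to 11.8 TPM in lung, where it rose by 1.53 ± 0.31 log2 units (adjusted p = 0.0129). Slc22a15 fell in small intestine by 1.50 ± 0.36 log2 units (adjusted p = 0.00346), and the carnitine importer Slc22a5 averaged 5.36 TPM there.

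Among vitamin, choline and haem carriers, Slc23a2 (SVCT2, chr2:132052496-132145108), the importer of ascorbate (vitamin C), was at 73.9, 87.4, 44.1 and 37.1 TPM in small intestine and 0.28 to 8.01 TPM (median 1.64) over the other 20 libraries. Even colon was at 2.90, 8.01 and 1.71 TPM, and small intestine exceeded it by 3.65 ± 0.44 log2 units (adjusted p = 9.05e-07). Against all 6 tissues the rise was 4.13 ± 0.31 log2 units (adjusted p = 2.79e-11). The choline transporter-like gene Slc44a2 was lowest in skin, at 4.80, 6.59 and 8.31 TPM against 22.99 to 130.0 TPM (median 87.6) elsewhere, a change of -3.26 ± 0.17 log2 units (adjusted p = 6.94e-13). Small intestine (90.96, 86.7, 122 and 87.6 TPM) was above colon (30.8, 32.03 and 23.1 TPM) by 1.70 ± 0.20 log2 units (adjusted p = 8.47e-07). The haem carrier Slc48a1 averaged 19.8 TPM in small intestine and 50.9 TPM in bone marrow, where it rose by 0.82 ± 0.24 log2 units (adjusted p = 0.00435).

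Other classes were small. The fatty acid carrier Slc27a4 was 16.3, 13.3, 11.2 and 19.1 TPM in small intestine and 58.3, 56.4 and 54.2 TPM in colon, without overlap, with a change of -1.89 ± 0.29 log2 units (adjusted p = 4.17e-05) for small intestine against colon. Skin and lung were at the level of colon, at 44.9, 51.7 and 80.8 TPM and 57.5, 60.2 and 77.99 TPM. Slc33a1, the carrier of acetyl-CoA, rose in bone marrow by 1.45 ± 0.48 log2 units (adjusted p = 0.0127), and the lysosomal sialic acid carrier Slc17a5 was listed at 0 in all 3 skin libraries. Of the 5 Slc35 genes, most of which carry nucleotide sugars into the Golgi, Slc35a4 rose in small intestine by 0.83 ± 0.21 log2 units (adjusted p = 0.000651) and the CMP-sialic acid carrier Slc35a1 and the UDP-galactose carrier Slc35a2 were called in no comparison of single tissues. Slc66a2, at 191 TPM in small intestine, 191 TPM in spleen and 196 TPM in blood, rose in small intestine by 0.34 ± 0.14 log2 units (adjusted p = 0.0137), as did Slc10a3 by 0.72 ± 0.28 log2 units (adjusted p = 0.0174) and Slc10a7 by 0.62 ± 0.29 log2 units (adjusted p = 0.0479). Against the median gene, Slc66a2 (adjusted p = 0.0609) and Slc10a7 (adjusted p = 0.0937) lost the call. Slc9a3r1 averaged 124 TPM in small intestine and fell in skin by 0.66 ± 0.11 log2 units (adjusted p = 0.000824). Slc7a6os, which overlaps Slc7a6, had no call.

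Counted over all classes, small intestine had 50 members higher and 14 lower than the 6 other tissues. That is 33.6% and 9.40% of members, against 24.7% and 16.1% of all genes tested, of which 40.8% were called in either direction. In 10 members (6.71%) all 4 small intestine libraries were above the other 20, against 4.47% of all genes. In 0 members were they all below (1.85% of all genes). The 10 were Slc3a2, Slc7a11, Slc38a1, Slc16a6, Slc28a2, Slc20a1, Slc24a3, Slc40a1, Slc25a20 and Slc23a2. Marker lists of other cells were also high in small intestine. The gut epithelium list (5 of 15 measured) summed to 101 to 230.1 TPM there and 59.0 to 136 TPM in colon, mostly Olfm4 at 67.9 to 176 TPM in small intestine, while Epcam was at 0 to 3.92 TPM in small intestine and 3.51 to 14.8 TPM in colon. The list of B and plasma cells (4 of 11 measured) summed to 281 to 1167 TPM in small intestine and 19.1 to 177 TPM elsewhere. The list of stroma, endothelium and platelets (6 of 12 measured) summed to 246 to 352 TPM in small intestine and 34.1 to 179 TPM elsewhere. The part of these cells in the results was not tested.

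Colon had 25 members higher and 4 lower (14.4% and 6.36% of all genes), or 24 and 9 with quantile normalization. Skin had 29 higher and 15 lower (22.2% and 12.5% of all genes, 34.7% in either direction), but 18 and 19 with median-ratio scaling and 20 and 22 in the test against the median gene. Lung had 19 higher and 61 lower (9.62% and 42.4% of all genes, 52% in either direction), 23 and 45 with median-ratio scaling 29 and 27 with quantile normalization and 28 and 26 in the test against the median gene, so the direction of its balance depends on the scaling. Bone marrow had 26 higher and 31 lower (22% and 19.2% of all genes, 41.3% in either direction), and 21 and 49 with quantile normalization. Barrier tissues had 36 higher and 33 lower than spleen, blood and bone marrow (22.4% and 31.1% of all genes, 53.4% in either direction), 44 and 27 with quantile normalization and 48 and 22 in the test against the median gene. Small intestine against colon gave 13 higher and 7 lower (5.63% and 7.1% of all genes), or 8 and 7 with a pseudocount of 0.1.

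Members whose libraries were all above or all below every other library were also counted. Skin had 6 above and 1 below (4.03% and 0.671% of members, against 3.96% and 1.1% of all genes). Lung had 3 above and 11 below (2.01% and 7.38%, against 0.969% and 6.75%). Bone marrow had 7 above and 4 below (4.7% and 2.68%, against 7.71% and 4.14%). The 3 above in lung were Slc24a1, Slc2a1 and Slc39a1. Those above in skin included Slc2a6, Slc6a4, Slc25a12, Slc25a24 and Slc5a3, the myo-inositol importer, and Slc44a2 was below. In bone marrow Slc16a1, Slc17a9, Slc25a10, Slc25a5, Slc28a2b, Slc30a2 and Slc39a11 lay above all other libraries, and Slc24a1, Slc2a1, Slc7a11 and Slc7a8 below.

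A number of these calls rested on few libraries. In skin, Slc25a4 rose by 1.39 ± 0.54 log2 units (adjusted p = 0.0288), but its 3 libraries were at 51.98, 7.08 and 4.23 TPM and the change was 0.38 (adjusted p = 0.495) without replicate 1. Its call was also lost against the median gene (adjusted p = 0.0503), as were the skin calls of Slc25a14 and Slc25a25 and the barrier call of Slc40a1. The skin calls of Slc25a14, Slc25a25, Slc25a5, Slc37a4, Slc49a4 and Slc20a1 were likewise lost on leaving out 1 skin library. So were those of Slc12a9, Slc25a12, Slc25a28, Slc25a51 and Slc48a1 in small intestine, and Slc30a5 there lost its call without the bone marrow libraries and spleen replicate 4. Between small intestine and colon, the calls of Slc7a6, Slc31a2 and Slc37a4 were lost on leaving out single libraries of either tissue, as was that of Slc37a4 in colon and of Slc7a6 in bone marrow. The sodium-calcium exchanger Slc8a1 fell in barrier tissues by 0.73 ± 0.36 log2 units (adjusted p = 0.041), a call lost on leaving out any of several libraries and against the median gene (adjusted p = 0.0942). Without the bone marrow libraries and spleen replicate 4 it fell by 1.62 (adjusted p = 0.00159).

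The reporter sort compared Nmur1-TdT positive with negative eosinophils of the small intestine. Of 118 members 16 were higher and 5 lower in positive cells, against 9.18% and 5.25% of all genes. With quantile normalization the counts were 13 and 10, with median-ratio scaling 12 and 6, and in the test against the median gene 8 and 8, so the balance of rises and falls depends on these choices. With the replicate number as a block, since same-numbered libraries deviated together, 17 were higher and 6 lower. In 9 members every positive library was above every negative one, and in 4 every one was below. That is 7.63% and 3.39% of members, against 5.65% and 3.71% of all genes.

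The members that fell included Slc2a6, with the largest change. Slc2a6 was at 7.07, 9.52, 12.00, 4.95 and 10.3 TPM in positive cells and 38.1 to 113 TPM (median 82.9) in negative cells, a change of -3.26 ± 0.28 log2 units (adjusted p = 2.31e-06). Slc11a1 was at 16.2, 15.1, 13.96, 24.4 and 28.1 TPM in positive and 50.5 to 89.7 TPM (median 55.9) in negative cells, a change of -1.84 ± 0.23 log2 units (adjusted p = 0.000161). The zinc importer Slc39a1 was at 9.13, 18.6, 20.7, 12.4 and 13.4 TPM in positive and 31.5 to 51.3 TPM (median 41.4) in negative cells, a change of -1.68 ± 0.24 log2 units (adjusted p = 0.000481). In each of these the groups did not overlap. Slc29a2 was at 3.35, 3.76, 2.71, 0.96 and 0.57 TPM in positive and 4.92 to 30.9 TPM (median 16.3) in negative cells, a change of -2.59 ± 0.44 log2 units (adjusted p = 0.00148), again without overlap. Slc38a2 fell by 0.76 ± 0.17 log2 units (adjusted p = 0.0406), but its adjusted p was 0.0735 with the replicate block, and the call was lost on leaving out most single libraries.

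Among the members that rose were amino acid, iron and ascorbate carriers. Slc23a2 was at 91.03, 54.9, 120.0, 79.2 and 82.6 TPM in positive and 11.5 to 34.8 TPM (median 31.3) in negative cells, a rise of 1.38 ± 0.27 log2 units (adjusted p = 0.000765). Slc38a1 was at 109, 58.1, 75.9, 56.1 and 86.5 TPM in positive and 21.3 to 36.8 TPM (median 26.5) in negative cells, a rise of 1.15 ± 0.21 log2 units (adjusted p = 0.000397). Slc40a1 was at 576, 494, 611, 345 and 512 TPM in positive and 125 to 325 TPM (median 205) in negative cells, a rise of 1.07 ± 0.22 log2 units (adjusted p = 0.000731). These groups did not overlap. Slc3a2 was at 1544, 1992, 1774, 1719.9 and 1794 TPM in positive and 797 to 1367 TPM (median 1018) in negative cells, a rise of 0.59 ± 0.14 log2 units (adjusted p = 0.000669). Its partner Slc7a11 was at 548, 685, 505, 529 and 822 TPM in positive and 437 to 613 TPM (median 568) in negative cells, with overlap and no call (a difference of -0.04 ± 0.14 log2 units, adjusted p = 0.442).

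The remaining rises were smaller or at lower levels. Slc20a1 rose by 0.71 ± 0.19 log2 units (adjusted p = 0.00308), with 174, 140.1, 182, 185 and 207 TPM in positive and 67.6 to 134 TPM (median 88.00) in negative cells. Slc39a4 rose by 1.85 ± 0.42 log2 units (adjusted p = 0.00344) to a mean of 10.7 TPM, against 2.25 TPM in negative cells. Slc24a3, Slc2a3, Slc31a1, Slc25a45 and Slc16a6 rose by 0.87 ± 0.25, 0.46 ± 0.17, 0.82 ± 0.27, 0.70 ± 0.24 and 0.30 ± 0.15 log2 units. For Slc31a1 the call was lost with median-ratio scaling (adjusted p = 0.0501) and quantile normalization (adjusted p = 0.0598). Against the median gene Slc2a3 (adjusted p = 0.0948), Slc31a1 (0.0605), Slc25a45 (0.0717) and Slc16a6 (0.223) lost their calls, as did Slc15a4 (0.0518) and Slc10a3 (0.0973). Slc35a5 rose by 1.06 ± 0.27 log2 units (adjusted p = 0.00376). Slc15a4 was at 28.5, 30.4, 17.4, 22.9 and 205 TPM in positive cells and 5.26 to 21.2 TPM (median 10.3) in negative cells, a rise of 1.52 ± 0.49 log2 units (adjusted p = 0.0239). Without positive replicate 8, its high library, the rise was 0.93 (adjusted p = 0.0358), and without negative replicate 5 the adjusted p was 0.0539. Slc10a3 rose by 0.89 ± 0.33 log2 units (adjusted p = 0.0324) and lost its call on leaving out any of several libraries, while with the replicate block its rise was 1.40 (adjusted p = 0.00357). Slc9a9 and Slc25a13, below 10 TPM and named after their values were seen, were also higher in positive cells. Both calls were lost in the test against the median gene (adjusted p = 0.0526 and 0.0553).

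**Figure D4:**
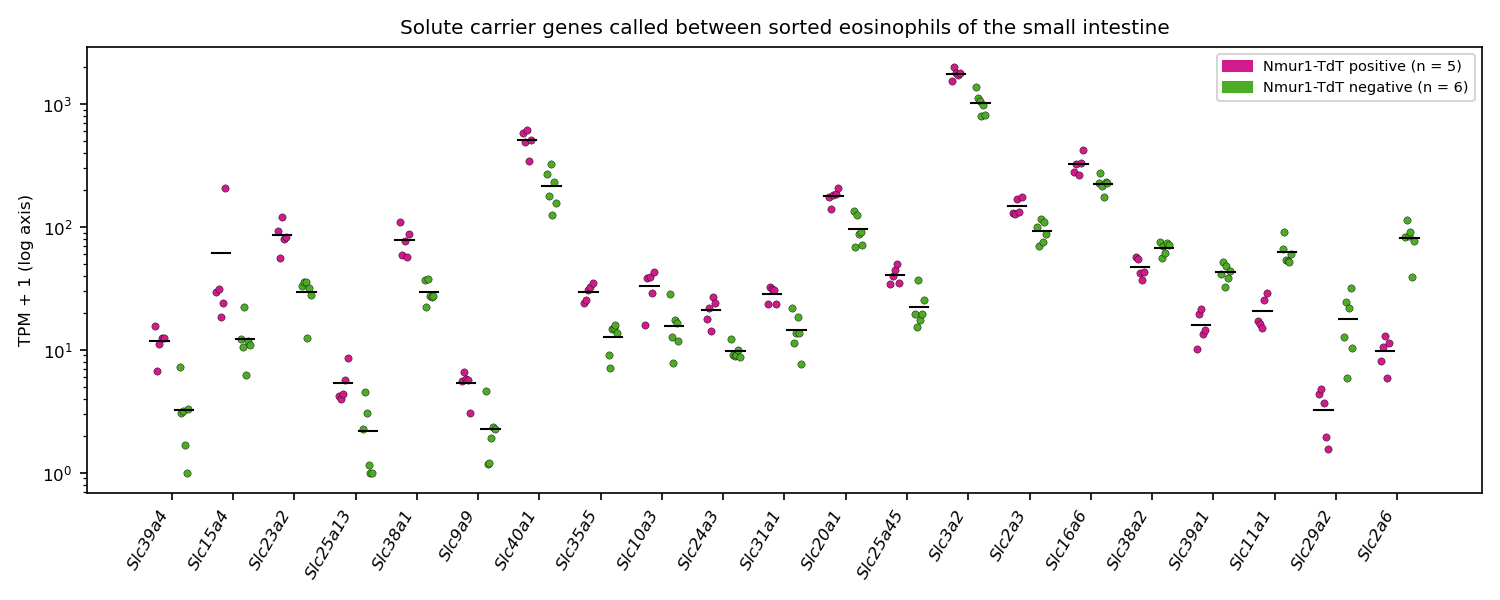
TPM + 1 on a log axis for the 21 solute carrier genes called between Nmur1-TdT positive (left of each pair) and negative libraries, ordered by log2 change; points are libraries and lines are arithmetic means. Slc39a4 to Slc16a6 are higher in positive cells, and Slc38a2, Slc39a1, Slc11a1, Slc29a2 and Slc2a6 are lower.

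Abundant members without a call in the sort included Slc25a3, Slc25a5, Slc25a20, Slc16a3, Slc66a2, Slc9a3r1, Slc6a6, Slc7a8, Slc44a2 and Slc26a2, a sulfate carrier. Slc16a3 averaged 303 ± 83.99 TPM in positive cells and 256 ± 50.2 TPM in negative cells (SD, n = 5 and 6). Marker lists of other cells also differed between the groups of the sort. The macrophage list (5 of 13 measured) summed to 337 to 592 TPM in positive and 144 to 227 TPM in negative libraries. The list of stroma, endothelium and platelets (3 of 12 measured) summed to 250.03 to 400.2 TPM in positive and 109 to 211 TPM in negative libraries, and the gut epithelium list (2 of 15 measured) to 113 to 239 TPM in positive and 79.5 to 96.7 TPM in negative ones. The list of neutrophil and precursor genes (5 of 14 measured) summed to 5916 to 10033 TPM in positive and 9431 to 12889 TPM in negative libraries, with overlap. No measured gene of these lists was at 0 in all libraries of either group. The part of these cells in the changes of the sort was not tested.

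The small intestine and sort comparisons share no library. Of the 117 members in both tables, 48 were higher in small intestine and 16 higher in positive cells, and 12 were both, or 25% of the first set and 75% of the second. Over all genes the shares were 20.9% and 67.8%, so the members were near the background. The 12 were Slc3a2, Slc38a1, Slc2a3, Slc16a6, Slc20a1, Slc24a3, Slc40a1, Slc31a1, Slc39a4, Slc25a45, Slc23a2 and Slc10a3. Slc2a6 and Slc29a2 were higher in small intestine and lower in positive cells. That is 4.17% of members higher in small intestine and 40% of members lower in positive cells, against 4.53% and 25.2% over all genes. None of the 12 members lower in small intestine was called in the sort. Of the 1181 genes lower in small intestine, 15.7% were lower and 0.931% higher in positive cells.

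**Figure D5:**
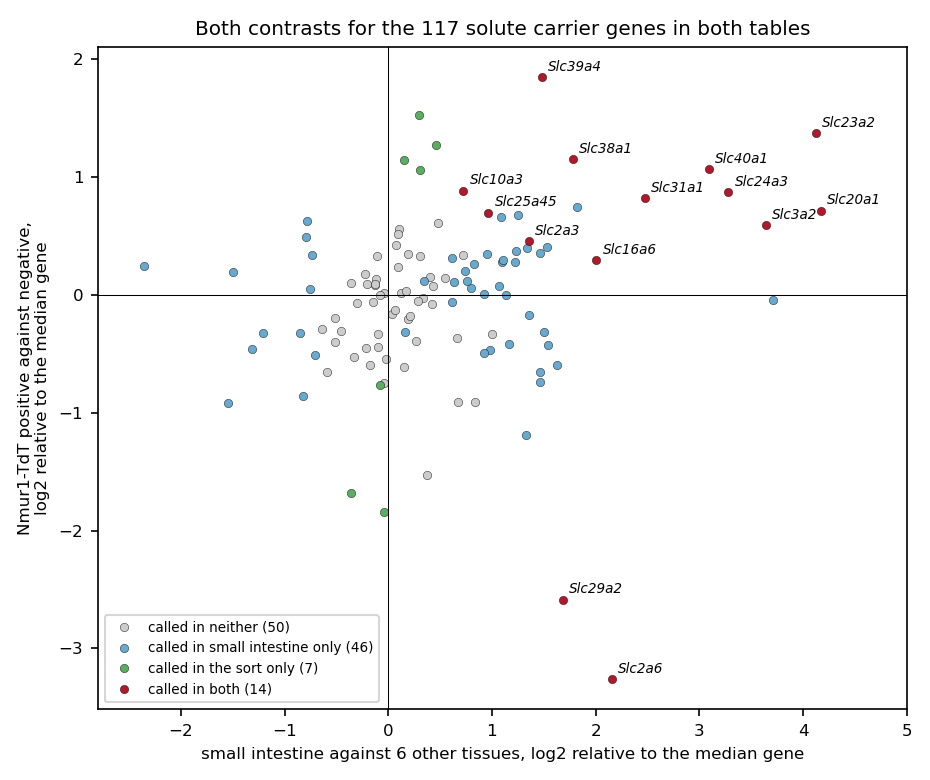
Log2 change relative to the median gene in small intestine against 6 other tissues (horizontal) and in Nmur1-TdT positive against negative eosinophils (vertical) for 117 solute carrier genes. Of the 14 called in both, 12 lie in the upper right and Slc29a2 and Slc2a6 in the lower right.

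Partner chains and other transport genes were read from lists. Of 7 partner subunits, 3 rose and 2 fell in small intestine, where 24.7% of all genes rose and 16.1% fell. Bsg, which brings Slc16 carriers to the surface, averaged 300.0 ± 25.6 TPM in small intestine, 277.6 ± 39.7 TPM in colon and 320.0 ± 89.7 TPM in skin, against 130.0 ± 11.2 TPM in lung, 152 ± 29.2 TPM in spleen, 138 ± 10.7 TPM in blood and 196 ± 16.5 TPM in bone marrow (SD, n = 4, 3, 3, 3, 4, 4 and 3). It rose in small intestine by 0.55 ± 0.13 log2 units (adjusted p = 0.000118). Lamtor1 and Ostm1 also rose there, while Nptn changed by -0.82 ± 0.22 (adjusted p = 0.0130) and Xk by -0.92 ± 0.28 (adjusted p = 0.0216). In barrier tissues Bsg rose by 0.74 ± 0.09 (adjusted p = 9.67e-06). Emb changed by -0.54 ± 0.25 (adjusted p = 0.0198) in barrier tissues and Nptn by -0.46 ± 0.17 (adjusted p = 0.00358), and Xk also fell. Of 31 carriers without an Slc name, 10 rose and 8 fell there (32.3% and 25.8%), with Slco4a1 at a change of 3.85 ± 0.24 (adjusted p = 6.12e-13) and Spns3 at -2.62 ± 0.22 (adjusted p = 6.45e-10). Of 38 pumps, 10 rose and 6 fell (26.3% and 15.8%), near the shares of all genes. The sodium pump subunit Atp1b1 changed by 3.66 ± 0.35 (adjusted p = 2.17e-09), and the phospholipid flippase Atp8b4 by -2.92 ± 0.25 (adjusted p = 6.11e-10).

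Known regulators of carrier genes were also read from a list. Of 19 measured, 11 rose and 1 fell in small intestine (24.7% and 16.1% of all genes), and 15 rose and 1 fell in barrier tissues (22.4% and 31.1% of all genes). Atf4, which acts on the amino acid response element, averaged 1087 ± 357 TPM in small intestine, 1065 ± 174 TPM in colon, 428 ± 70.3 TPM in skin and 289 ± 6.49 TPM in lung, against 131 ± 16.7 TPM in spleen, 149.9 ± 9.79 TPM in blood and 106 ± 18.4 TPM in bone marrow. Nfe2l2 (NRF2), which acts on the antioxidant response element, averaged 374 ± 44.6 TPM in small intestine, 352 ± 28.7 TPM in colon, 201 ± 73.3 TPM in skin and 108 ± 12.4 TPM in lung. It averaged 43.8 ± 7.80 TPM in spleen, 47.9 ± 3.86 TPM in blood and 58.4 ± 7.84 TPM in bone marrow. In the sort, 2 of 18 regulators fell and none rose, against 5.25% and 9.18% of all genes: Myc, at 4.37 ± 2.35 TPM in positive and 65.7 ± 14.5 TPM in negative cells, changed by -3.95 ± 0.31 (adjusted p = 6.98e-07), and Nfat5, at 8.38 ± 1.03 TPM in positive and 18.3 ± 4.21 TPM in negative cells, by -1.23 ± 0.25 (adjusted p = 0.0102). Atf4 was not called there, at 1386 ± 108 TPM in positive and 1241 ± 158 TPM in negative cells.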

How the data were processed

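Bulk RNA of total eosinophils from 7 tissues (24 libraries) and of Nmur1-TdT reporter sorts (11 libraries) was analysed, and the single-cell sample was not used here. The deposited values are TPM per gene, on which the authors' read trimming, alignment and quantification are listed in the submitters' processing notes as cutadapt 2.10, STAR 2.7.5c and RSEM 1.3.3 with the mm10 build. How genes were filtered before deposit is not given in the sources used here. TPM are shares of a total, so a rise of abundant genes lowers all others, and they keep no depth.

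From these, log2(TPM + 1) was fitted with limma 3.58.1 in R 4.3.3 (trended moderation, two-sided), with all 24 tissue libraries or all 11 sorted libraries in 1 model and a term for each group. Genes at 1 TPM in at least 3 tissue or 5 sorted libraries were tested, which every member passed, and p-values were adjusted over all genes tested. A tissue was set against the unweighted mean of the 6 others. Fits were also run on simulated data with independent noise and a group difference in a small set of genes only. That setting lacks the wide tissue differences and the shared deviations of these libraries, so it does not check the calls here. Same-numbered sorted libraries deviated together from their group means (4 of 4 pairs over a correlation of 0.1, 0.16 to 0.23), while 0 of 62 such tissue pairs did. Positions are from GENCODE, in which 147 members matched by symbol.

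Members and lists were chosen with earlier results of these data known, and substrate classes follow textbook knowledge. Per comparison, the genes named were the 10 largest rises and falls among called members whose higher group averaged 10 TPM or more, plus the 3 most abundant of each class, the 5 smallest and 5 largest ranges, and members whose groups did not overlap; others were named after their values were seen. Some genes that this rule takes in are not reported here. Alternatives were another pseudocount, no filter, median-ratio scaling, quantile normalization, robust moderation, a replicate block, leaving out each library and, added later, a test of each difference against that of the median gene.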

Additional observations from a re-analysis of the deposited data

Results flagged for a closer look

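Single libraries stood apart from the rest of their group, by the gap to the nearest library relative to the range, in 18 of 207 groups tested over 43 genes. The rule is meant to flag about 1 in 20 by chance, but this rate need not hold for TPM, which stop at 0. Some flagged groups were at 0 in all but 1 library. In the sort, Slc15a4 was at 204.66 TPM in positive replicate 8 and 17.4 to 30.4 TPM in the other positive libraries. The other high or low libraries of the sort were all negative ones. Replicate 5 was low for Slc6a6 (65.09 TPM, others 100.57 to 123.72) and for Slc23a2 (11.51 TPM, others 27.0 to 34.8). Replicate 7 was low for Slc2a6 (38.15 TPM, others 76.4 to 112.52) and Slc43a3 (5.72 TPM, others 9.39 to 11.3), and replicate 3 for Slc25a24 (5.61 TPM, others 9.61 to 12.4).

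In spleen, replicate 4 was high for Slc15a4 (116.77 TPM, others 18.03 to 23.8), and this library also held neutrophil precursor transcripts. Bone marrow, which held more Camp, had Slc15a4 at 10.99 to 14.1 TPM, and the part of precursor cells was not tested. Spleen replicate 3 was high for Slc25a37 (33.36 TPM, others 18.9 to 20.1). In small intestine, replicate 1 was low for Slc2a6 (18.49 TPM, others 47.4 to 54.3) and replicate 3 high for Slc44a2 (121.51 TPM, others 86.7 to 91.0). In blood, replicate 1 was low for Slc16a6 (14.21 TPM, others 26.5 to 29.8). The remaining cases lay near the lower end of detection. They were Slc2a6 in blood replicate 2 (2.92 TPM), Slc43a3 and Slc20a1 in blood replicate 4 (1.87 and 1.21 TPM), Slc29a2 and Slc24a3 in blood replicate 3 (0.18 and 0.34 TPM), Slc24a3 in spleen replicate 3 (0.73 TPM) and Slc6a4 in small intestine replicate 4 (0.99 TPM).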

How the results depend on the processing

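The 9 counts of members called stayed within 1.5 times under every alternative run, and no named gene changed direction. On leaving out each library in turn, the counts ran from 52 to 67 for small intestine, 23 to 32 for colon, 30 to 46 for skin, 64 to 83 for lung, 41 to 61 for bone marrow, 63 to 70 for barrier tissues, 14 to 24 for small intestine against colon, 17 to 21 for the sort and 108 to 114 across tissues. With the replicate block the sort gave 23 calls, and the tissue counts were 64 for small intestine, 28 for colon, 47 for skin, 76 for lung, 55 for bone marrow, 64 for barrier tissues, 22 for small intestine against colon and 109 across tissues, although tissue numbers share only a number. Besides Slc38a2 in the sort and Slc8a1 in barrier tissues (adjusted p = 0.0684), the lost calls of the genes followed singly are given with the results. A fit on the small intestine and colon libraries alone gave 21 calls. In the test against the median gene, added after seeing the data, the counts were 64 for small intestine, 30 for colon, 42 for skin, 54 for lung, 60 for bone marrow, 70 for barrier tissues, 21 for small intestine against colon and 16 for the sort, with lung keeping 45 of its 80 calls. Without the bone marrow libraries and spleen replicate 4, chosen after seeing the data, small intestine had 49 members higher and 14 lower, colon 27 and 3, skin 26 and 14, lung 15 and 51, and barrier tissues 37 and 27. Depth is unknown, so differences near 0 TPM cannot be given a counting error.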
